A study of Homo sapiens with 6 samples.

Results

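Collagens are the main fibre and sheet proteins of the matrix around cells, and a line of enzymes and chaperones makes them inside and outside the cell. The genes described here are the collagen chains, taken by symbol (COL, a number, A and a number, without the hemidesmosome collagen COL17A1), and 24 named genes that modify, fold, export, trim or crosslink them. The rule uses symbols and no measured value, but it was written with earlier results of these data known. Counts were analysed for 42 of these genes among 12703 genes in all, 19 collagen chains and 23 collagen-processing genes. The other 24 annotated chain genes, COL1A2 among them, and the processing gene LOXL3 were not analysed here. The RNA came from PC3, an established human prostate cancer cell line grown from a bone metastasis. In 3 PC3 lines a lentivirus had stably introduced GCNT1, which encodes a glycosyltransferase that makes core 2 branched O-glycans, and 3 PC3 lines had received negative-control particles instead. Every line had therefore been through viral transduction, and the methods do not say whether a line was a clone or a pool. Each line gave 1 stranded mRNA library, so p values measure the spread between these libraries. The labels call them biological replicates, and whether the lines of a group came from separate transductions is not stated. Other differences between the transduced groups, such as from selection of cells, cannot be told apart from an effect of GCNT1. In bulk RNA, fewer cells with a transcript and less transcript per cell cannot be told apart.

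Collagen chains wind in trimers into a helix whose repeating glycines leave room for hydroxylated prolines and lysines. Prolyl hydroxylases make the helix stable, lysyl hydroxylases and glycosyltransferases prepare the lysines for crosslinks and sugars, and the chaperone HSP47 (SERPINH1) holds the helix in the endoplasmic reticulum. Large trimers leave through exit sites that need TANGO1 (MIA3), and outside the cell propeptides are trimmed and lysyl oxidases crosslink the fibres. Fibrillar chains form rope-like fibrils, collagen IV chains form the sheet of basement membranes, and collagen VI chains form beaded filaments near the cell surface. Chains of 1 trimer are often encoded side by side, and COL4A1 with COL4A2 and COL4A5 with COL4A6 are pairs that point away from each other.

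Sequences before the start sites of 6 genes or pairs are shown, for pairs of neighbouring or partner chains and for genes called in the comparison. They come from RefSeq on GRCh38.p14, for which 30 of the 42 genes had a promoter sequence. COL3A1, COL8A1, COL6A1, COL1A1 and COLGALT2, which were also called, had none, so the choice was limited to the others. Capitals mark matches on either strand to CCAAT, to GGGCGG (a GC box), to TATAAA and to GAANNTTC (a short heat shock element), and no base lay in matches to more than 1 of these motifs. The first sequence is the whole stretch of 126 bases between the starts of COL4A1 and COL4A2 (chr13:110307158-110307283, read on the plus strand towards COL4A2). The others are the 250 bases before the start, on the strand of the gene, of COL4A6 (chrX:108439459-108439708, minus strand), COL6A2 (chr21:46097862-46098111, plus), COL6A3 (chr2:237414165-237414414, minus), COL5A1 (chr9:134641553-134641802, plus) and SERPINH1 (chr11:75562003-75562252, plus). COL4A6 and COL5A1 have 2 annotated starts each, and the outer was used.
COL4A1-COL4A2: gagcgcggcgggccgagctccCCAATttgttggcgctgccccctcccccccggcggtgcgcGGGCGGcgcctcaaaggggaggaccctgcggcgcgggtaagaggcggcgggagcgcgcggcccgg
COL4A6: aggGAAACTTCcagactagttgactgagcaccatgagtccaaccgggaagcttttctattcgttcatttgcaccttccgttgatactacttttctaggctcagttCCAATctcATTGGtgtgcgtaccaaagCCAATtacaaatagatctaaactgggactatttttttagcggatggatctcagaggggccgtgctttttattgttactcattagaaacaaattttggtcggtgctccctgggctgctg
COL6A2: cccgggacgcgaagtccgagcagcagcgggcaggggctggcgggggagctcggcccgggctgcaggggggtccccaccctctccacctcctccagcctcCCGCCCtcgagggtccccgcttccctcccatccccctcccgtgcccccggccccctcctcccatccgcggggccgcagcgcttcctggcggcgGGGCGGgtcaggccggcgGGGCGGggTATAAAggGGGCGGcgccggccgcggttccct
COL6A3: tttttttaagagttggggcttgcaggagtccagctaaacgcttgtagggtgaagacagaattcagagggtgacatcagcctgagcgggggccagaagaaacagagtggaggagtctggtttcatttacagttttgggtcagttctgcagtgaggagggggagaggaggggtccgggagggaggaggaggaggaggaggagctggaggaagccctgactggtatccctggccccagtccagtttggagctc
COL5A1: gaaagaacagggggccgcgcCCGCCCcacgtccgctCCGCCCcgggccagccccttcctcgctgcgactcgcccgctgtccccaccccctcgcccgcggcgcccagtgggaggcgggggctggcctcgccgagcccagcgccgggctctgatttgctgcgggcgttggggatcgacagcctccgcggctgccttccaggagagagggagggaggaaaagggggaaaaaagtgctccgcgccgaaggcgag
SERPINH1: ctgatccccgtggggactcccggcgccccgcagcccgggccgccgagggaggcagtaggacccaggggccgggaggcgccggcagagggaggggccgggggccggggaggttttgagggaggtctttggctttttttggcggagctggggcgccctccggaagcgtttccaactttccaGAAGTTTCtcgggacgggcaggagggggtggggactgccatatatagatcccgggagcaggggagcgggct

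The stretch shared by COL4A1 and COL4A2 held 1 CCAAT and 1 GGGCGG, and 80.2% of its bases were G or C. In windows of 126 bases before the start, CCAAT was found in 21.9% and GGGCGG in 34.5% of 27305 annotated promoters, 1 per gene. All promoters here include those of genes outside the 12703 analysed. The collagen genes were all analysed, so the sets compared are unlike. The window before COL4A6 had 3 CCAAT matches, a GAANNTTC, no GC box and 44% G or C. COL6A2 had 4 GGGCGG matches and a TATAAA whose first base lay 32 bases before the start. COL6A3 had none of the 4 motifs, and COL5A1 had 2 GC boxes. SERPINH1 had a GAANNTTC match 71 bases before the start, a motif found in 5.85% of promoters in windows of 250 bases. In the same windows 21 of the 30 promoters of these collagen genes had a GC box, against 42.2% of all promoters, 8 had CCAAT against 33.0%, 5 had TATAAA against 11.2% and 4 had GAANNTTC. These promoters were also richer in G and C, with medians of 64.2% for the chains and 69.0% for the processing genes against 57.6% for all promoters. A match describes the letters only.

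Libraries held 11392213 to 13825704 counts, and 3 counts, the floor used here, were 0.213 to 0.259 CPM (read counts relative to library size, scaled with edgeR's TMM factors). GCNT1 itself had 9, 13 and 8 counts in controls against 13, 16 and 35 with overexpression (log2 fold change 0.98, edgeR adjusted p = 0.0362), and the difference rested largely on overexpressing replicate 3. Without that library it was 0.49 (edgeR adjusted p = 0.269), and GCNT1 was also not called without control replicate 1 or control replicate 3 (edgeR adjusted p = 0.092 and 0.0944). The name overexpressing is that of the labels. The study also examined its GCNT1 overexpressing PC3 cells by real-time PCR, ELISA and immunocytochemistry, and those measurements are not part of these counts. The 13 collagen genes called were all called without overexpressing replicate 3 as well. All 5 epithelial markers had counts, with summed levels of 822 to 869 CPM in controls and 626 to 710.4 CPM with overexpression, most of it keratins. CDH1 (E-cadherin) and KRT19 fell, with log2 fold changes of -1.71 and -0.68 (edgeR adjusted p = 4.74e-05 and 4.27e-07), and EPCAM, KRT8 and KRT18 were not called, at 0.09, -0.14 and -0.18. Of 9 fibroblast markers only COL1A1 and COL3A1, both described here, had counts analysed, at a summed 126 to 178 CPM and 43.0 to 46.7 CPM. Of 4 endothelial markers PECAM1 and KDR had counts analysed, at a summed 148 to 166 and 47.7 to 63.4 CPM that was mostly KDR. KDR fell from 154 ± 9.43 to 53.1 ± 9.14 CPM (SD, n = 3 each, as for every ± here, log2 fold change -1.53, edgeR adjusted p = 2.63e-08), whereas PECAM1 rose from 1.77 ± 0.292 to 4.43 ± 0.603 CPM (log2 fold change 1.31, edgeR adjusted p = 8.36e-05). CD68 of 3 leukocyte markers was at 83.4 to 94.4 and 80.0 to 89.5 CPM. The part of other cell types in the results was not tested.

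Genes were called where edgeR's quasi-likelihood test, adjusted by Benjamini-Hochberg over all genes, gave a p under 0.05 and the log2 fold change was over 0.58 in size, the limits used in the study. Of the 42 genes 13 were called (31.0%), 4 of them higher and 9 lower with GCNT1 overexpression, against 19.3% of all genes tested (8.28% higher and 11.1% lower). Among the 19 chains 8 were called (42.1%), 2 higher and 6 lower, and among the 23 processing genes 5 were called (21.7%), 2 higher and 3 lower. The share of the processing genes was thus near that of all genes. Median log2 fold changes were -0.26 for the chains, 0.15 for the processing genes and 0.00 for all genes. By the adjusted p alone 14 chains (3 higher, 11 lower) and 19 processing genes (11 higher, 8 lower) were called, against 57.6% of all genes (28.3% higher, 29.3% lower). The 3 control and 3 overexpressing libraries did not overlap in 35 of the 42 genes, 17 higher and 18 lower, against 62.5% of all genes (30.9% higher, 31.6% lower).

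**Figure D1:**
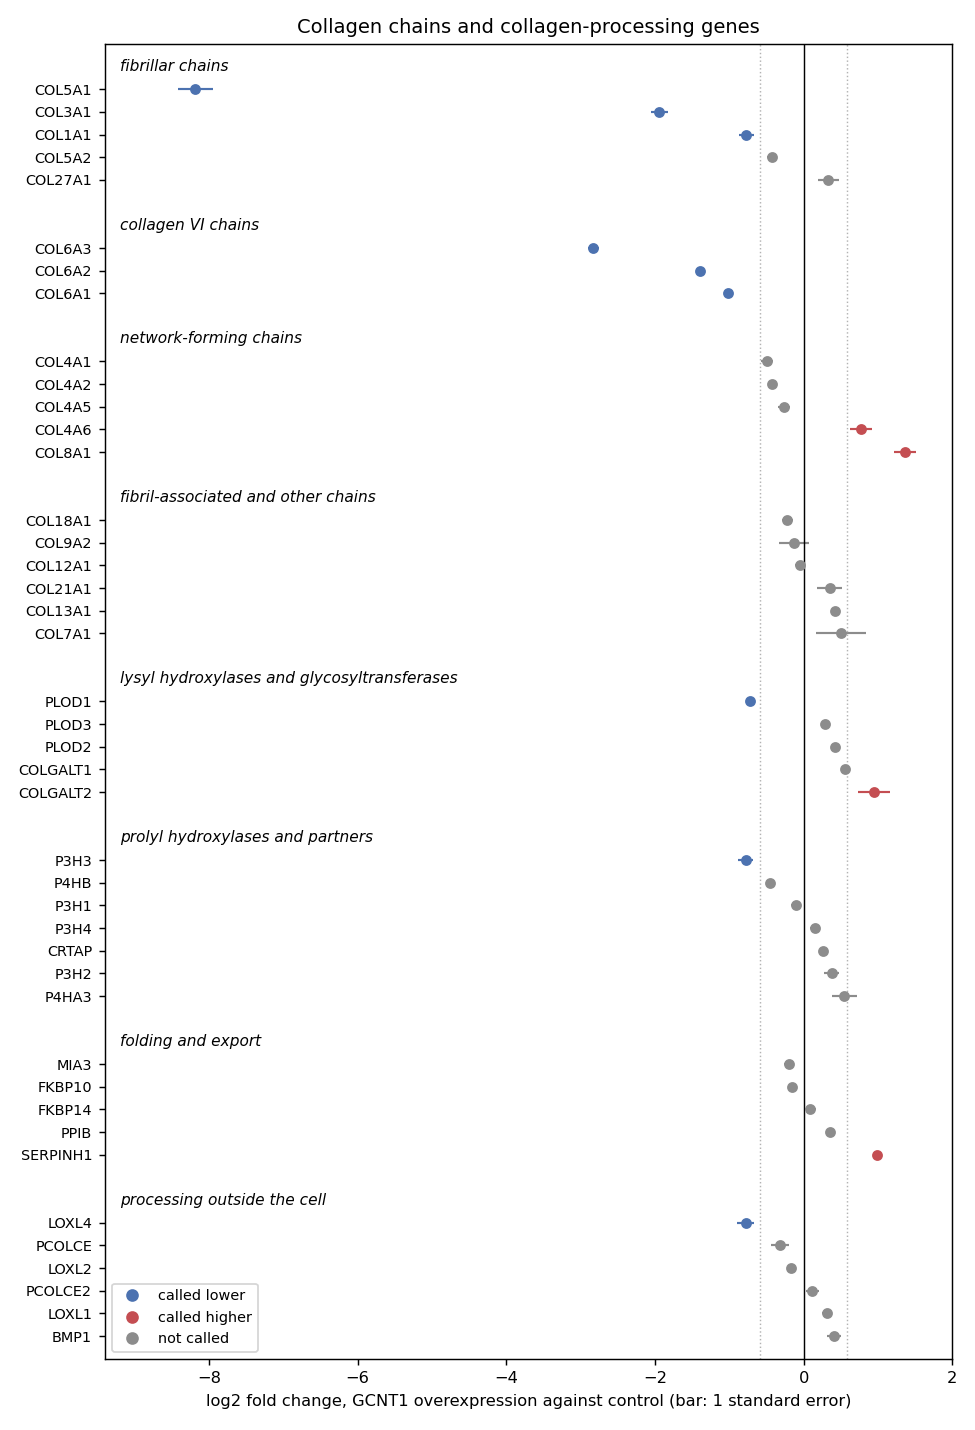
Log2 fold changes of the 42 genes by role, GCNT1 overexpression against control, with bars of 1 standard error from edgeR and dotted lines at the limit of 0.58 on either side. The 6 chains called lower are all fibrillar or collagen VI chains, from -8.18 for COL5A1 (which rests on 3 counts in the overexpressing libraries) to -0.77 for COL1A1, and COL8A1 at 1.36 is the highest of the 42 genes.

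Among the fibrillar chains COL5A1, COL3A1 and COL1A1 fell with GCNT1 overexpression, whereas COL5A2 and COL27A1 were not called. COL5A1 (Entrez identifier 1289, chr9:134641803-134844843) encodes the chain of collagen V that helps to start thin fibrils and set their width. Control libraries gave 300, 319 and 296 counts of COL5A1 and overexpressing libraries gave 0, 1 and 2, all at or under the floor. Summed over the libraries and scaled for depth, the control count was 326 times the overexpressing count, with an exact 95% counting interval of 111 to 1585 (edgeR adjusted p = 1.5e-11). COL5A2, its partner in the collagen V trimer, was at 433, 391 and 370.2 CPM in controls and 274, 328 and 291 CPM in overexpressing cells. The groups of COL5A2 did not overlap, but its change was under the fold change limit (log2 fold change -0.42, standard error 0.07, edgeR adjusted p = 0.000182).

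COL3A1 (chr2:188974373-189012746), the single chain of collagen III, was at 164, 110.3 and 143 CPM in control cells and fell to 34.5, 38.4 and 35.6 CPM with GCNT1. It was 3.84-fold lower (log2 fold change -1.94, standard error 0.12, edgeR adjusted p = 1.87e-08), and the spread was wider among controls (SD 27.2 CPM) than among overexpressing libraries (SD 2.04 CPM). COL1A1 (chr17:50184101-50201631), a chain of collagen I, was at 13.7, 15.7 and 14.3 CPM in controls and 8.55, 8.23 and 8.86 CPM with overexpression. Its groups did not overlap (log2 fold change -0.77, standard error 0.10, edgeR adjusted p = 2.32e-05). COL1A1 was not called by glmTreat, the stricter edgeR test of whether a change itself exceeds the fold change limit (adjusted p = 0.0896). COL27A1, a minor fibrillar chain of cartilage, was at 6.68 ± 1.28 CPM in controls and 8.41 ± 0.175 CPM with overexpression (log2 fold change 0.33, edgeR adjusted p = 0.0553), and its log2 fold change was 0.20 to 0.47 with each library left out, the highest without control replicate 2 (edgeR adjusted p = 0.0206).

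All 3 collagen VI chains fell, by unequal amounts. COL6A1 (Entrez identifier 1291, chr21:45981770-46005048) was at 877, 935 and 927 CPM in controls and 478, 437 and 447 CPM with overexpression. It was 2.01-fold lower (log2 fold change -1.01, standard error 0.05, edgeR adjusted p = 1.71e-09). COL6A2 (chr21:46098112-46132848), which lies 93063 bases further along the same strand, went from 396, 424 and 418 CPM in controls to 172, 146 and 153 CPM, 2.62-fold lower (log2 fold change -1.39, standard error 0.06, edgeR adjusted p = 6.58e-10). COL6A3, the longest chain of the trimer, is encoded apart from them (chr2:237324018-237414164) and went from 109.7, 113 and 101 CPM to 15.4, 14.1 and 16.0 CPM. It was 7.10-fold lower (log2 fold change -2.83, standard error 0.07, edgeR adjusted p = 5.26e-12). In each of the 3 genes every overexpressing library was below every control library.

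On the scale of CPM per kb of the canonical GENCODE transcript, which allows levels to be compared between genes, COL6A1 was the most abundant of the 19 chains in both groups. It had 217 ± 7.54 CPM per kb in controls and 108 ± 5.12 with overexpression, followed by COL6A2 at 119.7 ± 4.35 and 45.6 ± 3.86. COL5A2 was next, at 58.3 ± 4.70 CPM per kb in controls and 43.6 ± 3.99 with overexpression, where its values and those of COL6A2 were within their spread of each other. In controls COL3A1 (25.3 ± 4.95), COL13A1 (23.8 ± 0.559) and COL4A2 (22.5 ± 0.349) followed, and the first lay within its spread of the other two. With overexpression COL3A1 went from place 4 to place 8 among the 19 chains and COL6A3 from place 9 to place 14. COL8A1 went from place 18 to place 11. With overexpression COL3A1 was within its spread of COL4A5, COL6A3 of COL1A1 and COL8A1 of COL4A6, which stood next to them, so the exact places are not fixed.

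The 19 chains together made up 2552 to 2589.7 CPM in the control libraries and 1492 to 1501 CPM in the overexpressing libraries. Per kb of transcript the sum was 526 ± 3.42 in controls and 296 ± 4.54 with overexpression. Collagen VI held 63.9 to 67.3% of this sum in controls and 50.4 to 54.8% with overexpression, and the chains other than collagen VI were at 179 ± 8.57 and 141 ± 4.64 CPM per kb. These are sums of RNA and not of protein.

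**Figure D2:**
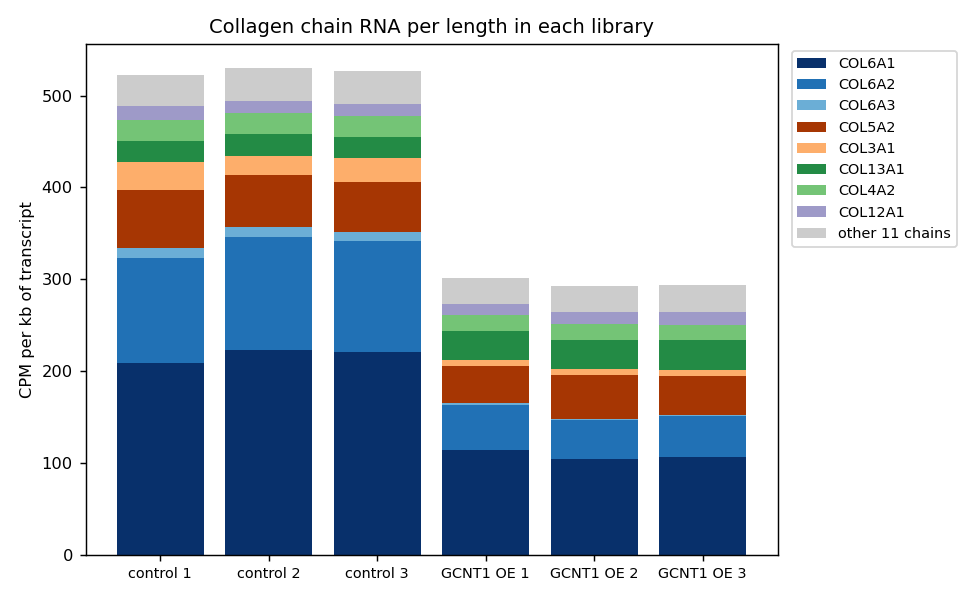
Stacked bars of collagen chain RNA in each of the 6 libraries, in CPM per kb of canonical transcript. The control bars reach 523 to 529.7 and the overexpressing bars 293 to 301, and the collagen VI blocks (347 against 155 on average) hold most of the difference.

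Of the network-forming chains 2 rose and 3 were not called. COL4A1 and COL4A2, the chains of the common basement membrane collagen that start from the 126 bases shown above, were both lower by less than the fold change limit. COL4A1 was at 43.4, 46.5 and 45 CPM in controls and 28.9, 31.4 and 35.1 CPM with overexpression (log2 fold change -0.49, standard error 0.08, edgeR adjusted p = 0.000104). COL4A2 was at 147, 145 and 143 CPM in controls and 110.0, 107 and 107 CPM with overexpression (log2 fold change -0.42, standard error 0.05, edgeR adjusted p = 7.49e-06). Neither gene had overlapping groups. The other head-to-head pair lies on chromosome X, with 379 bases between the outer starts. COL4A5 was at 51.4, 50.4 and 47.6 CPM in controls and 36.7, 45.6 and 41.8 CPM with overexpression (log2 fold change -0.26, standard error 0.08, edgeR adjusted p = 0.0103), without overlap but under the fold change limit. COL4A6 (chrX:108155614-108439458), its neighbour and partner chain, rose from 7.07, 6.59 and 5.84 CPM to 8.73, 12.2 and 12.0 CPM (log2 fold change 0.77, standard error 0.14, edgeR adjusted p = 0.00051). COL4A6 was not called by glmTreat (adjusted p = 0.249), and gene counts do not separate its 2 annotated starts. COL8A1 (chr3:99638594-99799217), a short chain of the sheets under endothelium and of the cornea, had the largest rise of the 42 genes. It went from 3.73, 4.10 and 4.40 CPM to 8.99, 12.2 and 10.1 CPM, which was 2.56-fold higher (log2 fold change 1.36, standard error 0.15, edgeR adjusted p = 4.84e-06).

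No fibril-associated or other chain was called. COL13A1, a transmembrane collagen, was at 75.05 ± 1.76 CPM in controls and 101 ± 1.204 CPM with overexpression (log2 fold change 0.42, edgeR adjusted p = 1.4e-05), with groups that did not overlap. COL18A1, the basement membrane collagen that carries endostatin, had 58.01 ± 3.00 and 49.8 ± 5.17 CPM (log2 fold change -0.22, edgeR adjusted p = 0.0225), and its edgeR adjusted p was 0.0779, 0.112 and 0.0803 without control replicate 3, overexpressing replicate 2 and overexpressing replicate 3. COL12A1, which binds along fibrils, had 164 ± 11.2 and 158 ± 9.17 CPM with overlapping groups (log2 fold change -0.05, standard error 0.06, edgeR adjusted p = 0.474). COL7A1, the anchoring fibril collagen, had 11, 15 and 23 counts in controls and 25, 33 and 16 with overexpression, and its groups overlapped (log2 fold change 0.50, standard error 0.34, edgeR adjusted p = 0.225). Its log2 fold change was 0.27 to 0.85 with each library left out. COL21A1 (3.67 ± 0.216 and 4.65 ± 0.708 CPM) and COL9A2 (2.59 ± 0.419 and 2.38 ± 0.365 CPM), both of the fibril-associated kind, had edgeR adjusted p values of 0.0795 and 0.622.

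**Figure D3:**
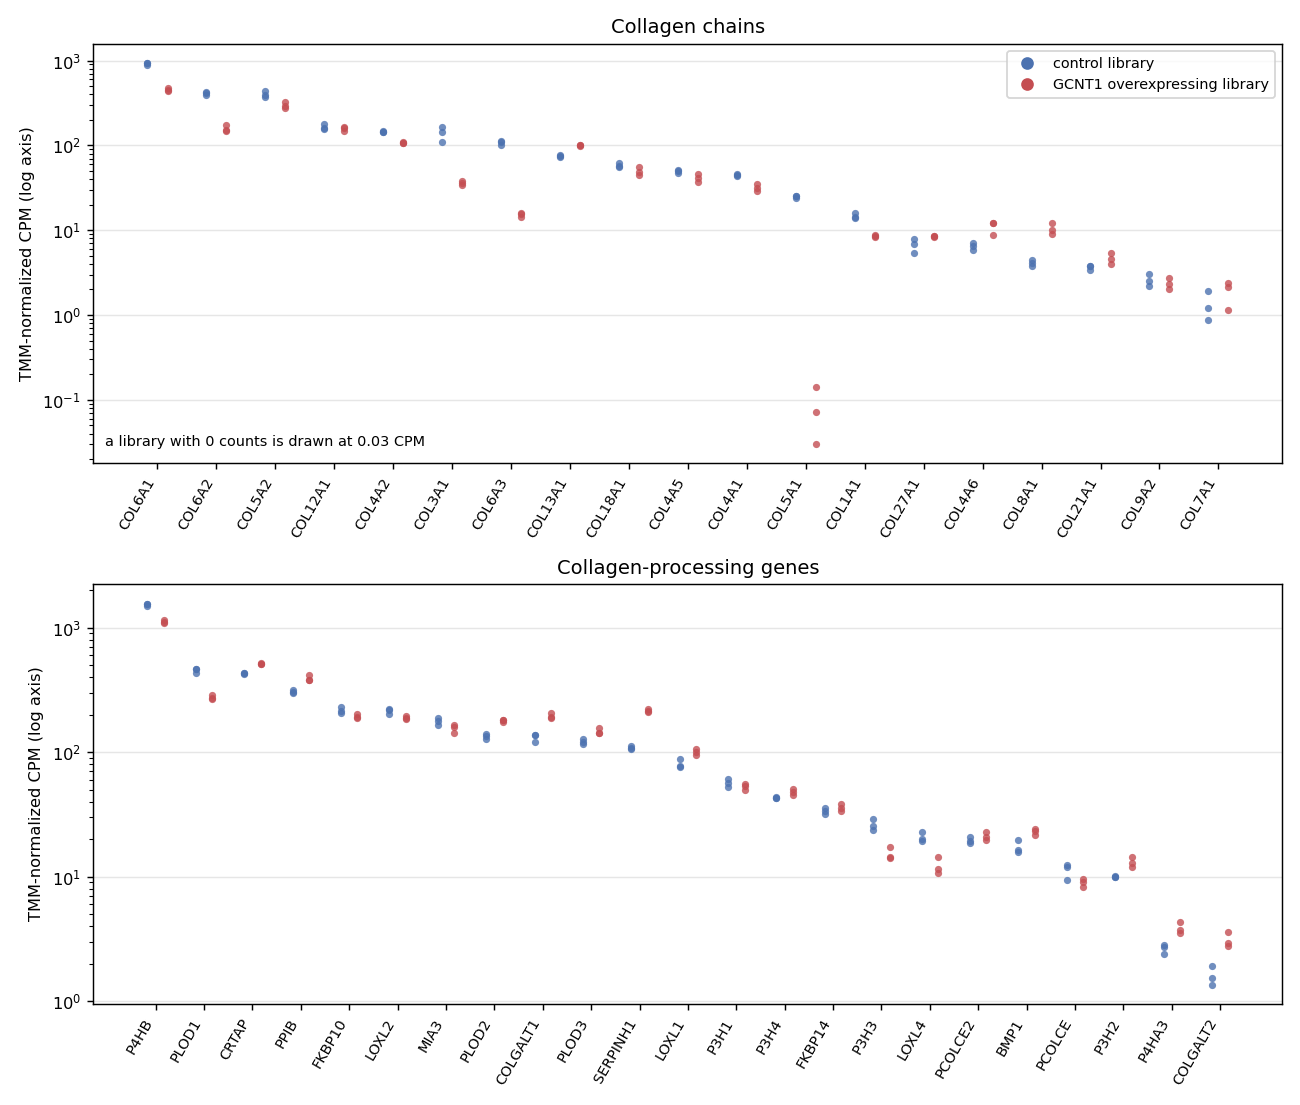
TMM-normalized CPM of every gene in every library on a log axis, with 3 control points and 3 overexpressing points per gene. COL6A1 (mean 913 CPM in controls) and P4HB (1531 CPM) are the highest of the chains and of the processing genes, COL5A1 drops from 24.8 CPM to 0, 1 and 2 counts, and the groups of SERPINH1, COL6A3 and COL3A1 are apart.

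Chains of 1 trimer were also compared within each library, as the log2 ratio of their counts with 1 count added to each, so that scaling between libraries plays no part. For COL4A1 over COL4A2 the ratio was -1.76, -1.63 and -1.67 in controls and -1.92, -1.77 and -1.61 with overexpression, and these values overlapped (difference -0.08, exact permutation p = 0.60, two-sided). For COL4A5 over COL4A6 it went from 2.93 ± 0.08 to 1.91 ± 0.14, a difference of -1.01. COL6A3 over COL6A1 went from -3.08 ± 0.10 to -4.90 ± 0.09, a difference of -1.81, and COL6A2 over COL6A1 from -1.15 ± 0.01 to -1.53 ± 0.05, a difference of -0.39. COL5A1 over COL5A2 differed most, by -7.07, a value that depends on the added count because of the 0, 1 and 2 counts of COL5A1. In these 4 pairs the groups did not overlap and the exact two-sided permutation p was 0.10, the smallest that 3 libraries against 3 allow, so none of the 5 comparisons could pass 0.05.

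**Figure D4:**
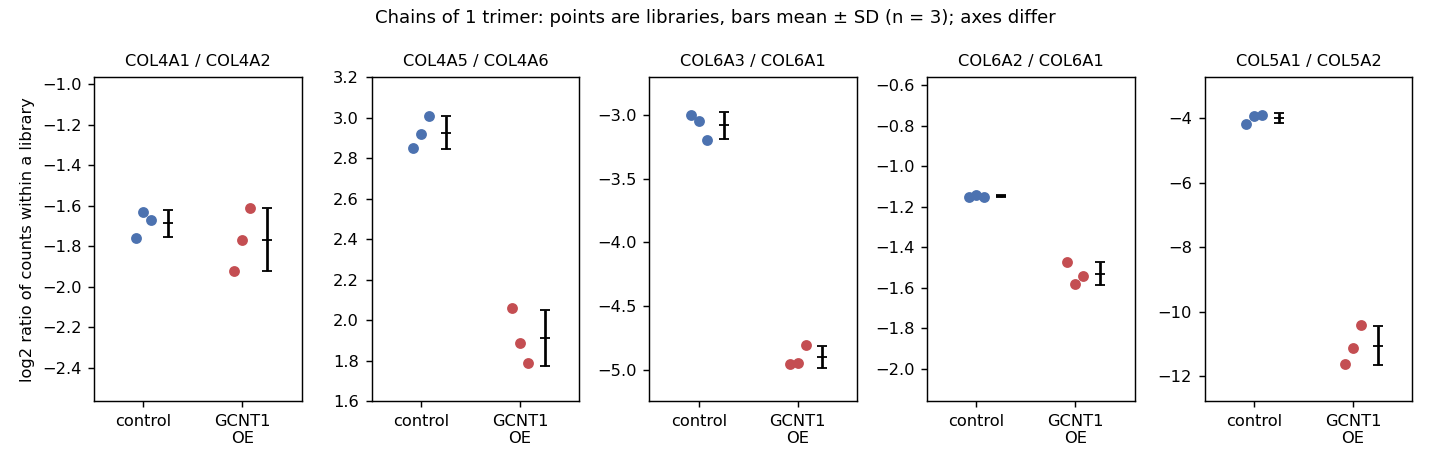
Within-library log2 ratios of counts for 5 pairs of chains that assemble in 1 trimer, with 1 point per library and the mean ± SD (n = 3) of each group, on axes of different range. The control and overexpressing points mix only for COL4A1 over COL4A2, and the other 4 ratios are lower with overexpression.

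Among the 5 enzymes that hydroxylate lysines and add sugars to them, PLOD1 fell, COLGALT2 rose and 3 were not called. PLOD1 (chr1:11934717-11975537), the lysyl hydroxylase of the helix, went from 431, 463 and 468 CPM to 289, 266 and 274 CPM, 1.64-fold lower (log2 fold change -0.72, standard error 0.05, edgeR adjusted p = 6.86e-08). PLOD2, which hydroxylates the ends of the chains, was at 134, 140.1 and 127 CPM in controls and 174, 182 and 182 CPM with overexpression (log2 fold change 0.42, standard error 0.05, edgeR adjusted p = 1.29e-05). PLOD3, which also adds glucose, had 121 ± 5.89 and 148 ± 8.44 CPM (log2 fold change 0.29, edgeR adjusted p = 0.000921). PLOD2 and PLOD3 were under the fold change limit, though in both the groups did not overlap. COLGALT1, the main collagen galactosyltransferase, was at 122, 138 and 138 CPM in controls and 206, 189 and 192 CPM with overexpression. Its change lay just under the limit (log2 fold change 0.56, standard error 0.06, edgeR adjusted p = 3.73e-06) and was 0.62 and past it when library size replaced TMM. The low paralogue COLGALT2 (chr1:183929662-184037728) rose from 1.91, 1.53 and 1.35 CPM to 2.77, 3.57 and 2.91 CPM (log2 fold change 0.95, standard error 0.21, edgeR adjusted p = 0.00197) and was not called by glmTreat (adjusted p = 0.129).

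Of 7 genes of the prolyl hydroxylase families and their partner proteins P3H3 was the one called. P3H3 (chr12:6828407-6839847), a prolyl 3-hydroxylase family member that acts with P3H4 and PLOD1 on lysines, fell from 23.8, 29.0 and 25.3 CPM to 17.3, 14.1 and 14.5 CPM (log2 fold change -0.78, standard error 0.10, edgeR adjusted p = 2.69e-05). It was not called by glmTreat (adjusted p = 0.0891), and GPR162 overlaps it on the same strand. P3H4, its partner in that complex, had 43.1 ± 0.409 and 47.9 ± 2.56 CPM (log2 fold change 0.15, edgeR adjusted p = 0.055). P4HB, the protein disulphide isomerase that is also the beta subunit of prolyl 4-hydroxylase, was the most abundant of the processing genes at 628 CPM per kb in controls. It was at 1481, 1549 and 1564 CPM in controls and 1162, 1099 and 1103 CPM with overexpression, without overlap but under the fold change limit (log2 fold change -0.45, standard error 0.04, edgeR adjusted p = 1.32e-06). CRTAP and P3H1, which with PPIB form the prolyl 3-hydroxylation complex, had log2 fold changes of 0.26 (edgeR adjusted p = 0.000101) and -0.10 (edgeR adjusted p = 0.235). P3H2, a prolyl 3-hydroxylase of basement membrane collagen, and P4HA3, a catalytic subunit of prolyl 4-hydroxylase, had log2 fold changes of 0.38 and 0.55 (edgeR adjusted p = 0.00582 and 0.0153). P4HA3 was past the limit (0.61) with library size in place of TMM, but its adjusted p was 0.0848 with DESeq2 and 0.0531 and 0.064 in edgeR without control replicate 3 and without overexpressing replicate 2.

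SERPINH1 (chr11:75562253-75572783) was the one gene called of the 5 for folding and export, and it rose, whereas 6 chains fell and 2 rose. It went from 105, 108 and 111 CPM to 221, 213 and 211 CPM. The level was thus 1.99-fold higher (log2 fold change 0.99, standard error 0.05, edgeR adjusted p = 2.44e-09), and among the 23 processing genes it went from place 7 to place 3 per length. PPIB, the prolyl isomerase cyclophilin B, was at 298, 305 and 315 CPM in controls and 416, 382 and 381 CPM with overexpression, under the fold change limit (log2 fold change 0.36, standard error 0.05, edgeR adjusted p = 3.39e-05). FKBP10 (218 ± 12.3 and 195 ± 8.20 CPM) and FKBP14 (33.7 ± 2.10 and 35.8 ± 2.55 CPM), prolyl isomerases of the endoplasmic reticulum, had log2 fold changes of -0.16 and 0.09 (edgeR adjusted p = 0.0234 and 0.332). MIA3 had 178 ± 12.1 and 155 ± 11.2 CPM (log2 fold change -0.20, edgeR adjusted p = 0.0188).

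Of the 6 genes that act outside the cell LOXL4, a lysyl oxidase relative, fell and the others were not called. LOXL4 (chr10:98247690-98268194) went from 19.5, 19.998 and 22.8 CPM to 14.3, 11.5 and 10.7 CPM (log2 fold change -0.78, standard error 0.11, edgeR adjusted p = 5.36e-05) and was not called by glmTreat (adjusted p = 0.107). LOXL2, at 57.5 CPM per kb in controls the most abundant of the 3 relatives analysed, had 214 ± 11.2 and 189.9 ± 4.63 CPM (log2 fold change -0.17, edgeR adjusted p = 0.011). LOXL1, known for elastic fibres, had 80.8 ± 6.54 and 100.3 ± 5.98 CPM (log2 fold change 0.31, edgeR adjusted p = 0.00152). BMP1, the protease that removes the C-propeptide, had 17.3 ± 2.13 and 23.04 ± 1.23 CPM (log2 fold change 0.41, edgeR adjusted p = 0.00244). PCOLCE and PCOLCE2, which enhance that cleavage, had log2 fold changes of -0.32 and 0.12 (edgeR adjusted p = 0.036 and 0.262), and the groups of both overlapped.

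The change of each gene was set beside that of its chromosomal neighbours, as the median log2 fold change of the 50 nearest analysed genes. This local median was within 0.2 of 0 for 31 of the 42 genes. COL6A3 lay where it was -0.61, and relative to it the log2 fold change of COL6A3 was -2.22. COL5A1 lay where the neighbours were higher (local median 0.57), and COL6A1 and COL6A2 lay among neighbours with a local median of 0.24, so these 3 genes went against their surroundings. P4HB had a local median of -0.34, which left -0.11 of its change. LOXL1 had 0.31, which left 0.00, and PPIB had 0.27, which left 0.09. For COL4A1 the local median was 0.14, and relative to it the log2 fold change was -0.63, past the limit. In 7 of the 13 genes called, the sign of the change was opposite to that of the local median. The part of shared position in the results was not tested.

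**Figure D5:**
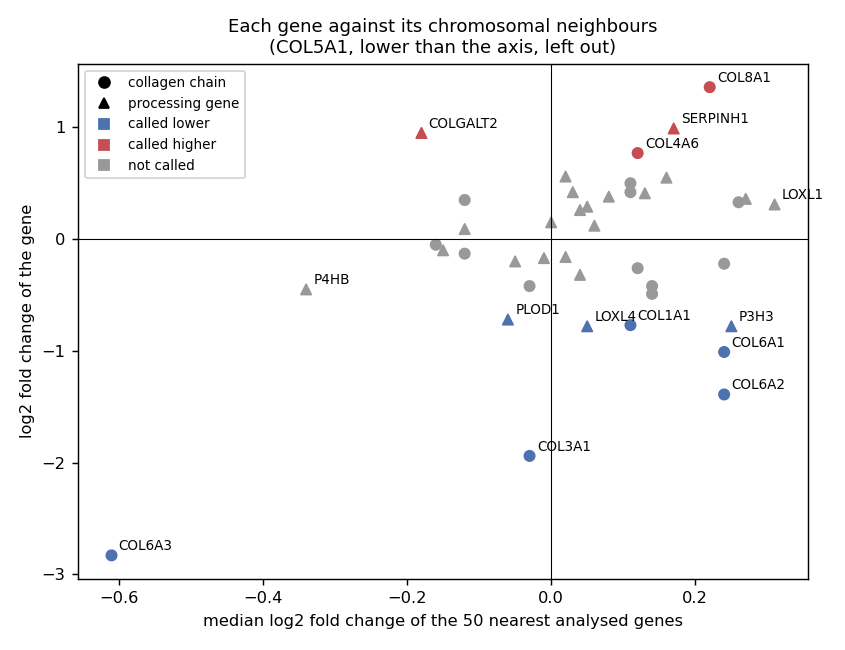
Log2 fold change of each gene against the median log2 fold change of its 50 nearest analysed genes, with COL5A1 (-8.18, local median 0.57) left out. COL6A3 at -0.61 has the lowest local median, while COL6A1, COL6A2 and P3H3 fell among neighbours that were higher.

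Genes with neighbouring roles in the collagen pathway, listed from general knowledge, numbered 32, of which 23 were analysed and 8 were called, 5 higher and 3 lower, against 19.3% of all genes. ITGA1, the integrin subunit that binds mainly collagen IV, fell to 1.14 ± 0.319 CPM from 27.7 ± 3.68 CPM (log2 fold change -4.56, edgeR adjusted p = 2.22e-10). ITGA2, the subunit that prefers fibrillar collagen, and ITGA10 had log2 fold changes of -1.02 and 0.88 (edgeR adjusted p = 6.84e-07 and 1.47e-05), whereas their shared beta subunit ITGB1 had 0.02 (edgeR adjusted p = 0.757). Local medians were -0.57 for ITGA1 and -0.53 for ITGA2. Of the proteases that cleave collagen, MMP13 and CTSK rose (log2 fold changes 1.21 and 0.79, edgeR adjusted p = 3.66e-07 and 0.00355) and MMP1 fell (log2 fold change -0.61, edgeR adjusted p = 2.43e-05). ADAMTS3, which trims an amino-terminal propeptide, rose (log2 fold change 0.73, edgeR adjusted p = 0.000145), and so did COL17A1 (log2 fold change 0.66, edgeR adjusted p = 0.0302). None of the 6 export genes was called. P4HA1 and P4HA2, the main catalytic subunits of prolyl 4-hydroxylase, had log2 fold changes of -0.11 and -0.55 (edgeR adjusted p = 0.07 and 2.07e-06), and the crosslinking enzyme LOX had 0.13 (edgeR adjusted p = 0.339).

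Genes on the opposite strand overlap 21 of the 42 genes and a gene on the same strand overlaps 5. Among the 13 genes called these were COL1A1, COL5A1 and LOXL4 on the opposite strand and P3H3 on the same strand. The sources do not say whether the counting used strand, so the counts of these genes are uncertain to that extent.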

How the data were processed

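RNA-seq libraries of 3 control and 3 GCNT1 overexpressing PC3 lines were analysed, grouped by the sample labels. Raw gene-level read counts were deposited, which the authors obtained from 75 bp single reads after adapter trimming (Cutadapt), alignment to hg38 (HISAT2) and gene counting (featureCounts) in Galaxy 22.01. The annotation, strand setting and low-count filter are not given in the sources used here. Symbols and positions were taken from RefSeq by Entrez identifier (12661 of 12703 genes matched), and transcript lengths and overlaps from GENCODE 44. Counts were tested in R 4.3.3 with edgeR 4.0.16 (filterByExpr, which left out 0 genes, TMM scaling, a quasi-likelihood fit of the 2 groups, Benjamini-Hochberg adjustment). Libraries of 1 group differed by more than sampling noise (chi-square per degree of freedom 1.65 to 5.61), so each counted as 1 sample. Floors and intervals cover counting error only. Every analysed gene of the symbol rule was tested, and those called and their partner chains are given by library. The genes and lists were chosen with earlier results of these data known. Alternatives were limma-voom (limma 3.58.1), DESeq2 1.42.0, other scalings and filters, the replicate block, glmTreat, the adjusted p alone, neighbour-relative changes and each library left out. Before use, the scripts were tested on simulated counts, from which no value is given here. The result of 1 marker list is not reported here.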

Additional observations from a re-analysis of the deposited data

How the results depend on the processing

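Of the 13 genes called, 8 kept their direction and their call under every alternative in which they were tested, and the other 5 (COL1A1, COL4A6, COLGALT2, P3H3 and LOXL4) lost it under glmTreat alone, which called 6 chains and 2 processing genes, PLOD1 and SERPINH1, against 11% of all genes. With the adjusted p alone 14 chains and 19 processing genes were called, against 57.6% of all genes. A filter at 10 counts in every library removes COL5A1 and left 7 chains, against 16.4% of all genes, and relative to the neighbours COL4A1 was added to give 9, against 15.4%. Under the other alternatives 18.2% to 19.8% of all genes were called. Leaving out each library in turn gave 8 chains in every fit and 5 to 7 processing genes. COLGALT1 was then added without control replicate 2 (0.60), without control replicate 3 (0.59) and without overexpressing replicate 2 (0.60), and P4HA3 without control replicate 2 (0.60) and without overexpressing replicate 3 (0.61). Library size in place of TMM added both, giving 7 processing genes, and moved the median of all genes to 0.06. With the replicate block 8 chains and 5 processing genes were called, all of them also called without it. Same-numbered libraries shared only a number, since their deviations from the group means had correlations of -0.273, -0.0024 and -0.109 across genes. With 0.5 counts added in place of 1, the difference for COL5A1 over COL5A2 was -7.62. Leaving out each library gave differences of -0.16 to -0.0014 for COL4A1 over COL4A2, -1.09 to -0.95 for COL4A5 over COL4A6, -1.87 to -1.77 for COL6A3 over COL6A1, -0.41 to -0.36 for COL6A2 over COL6A1 and -7.39 to -6.78 for COL5A1 over COL5A2. Direction reversed in 3 genes that were not called. COL12A1 had a log2 fold change of 0.0042 with library size alone, -0.09 to 0.01 with each library left out and 0.11 relative to its neighbours, COL9A2 had -0.23 to 0.0034 with each library left out, and P3H1 had 0.05 relative to its neighbours. When 1 library was left out, the adjusted p of 6 genes under the fold change limit passed above 0.05 (COL18A1, FKBP10, LOXL2, MIA3, P4HA3 and PCOLCE), and that of 3 passed below it (COL21A1, COL27A1 and P3H4). For GCNT1 these alternatives were chosen after seeing the data, without the filter at 10 counts, the adjusted p alone and the neighbour-relative change. Its log2 fold changes were 0.49 to 1.21 with each library left out, and DESeq2 and glmTreat did not call it (adjusted p = 0.0821 and 0.396). The causes were not tested.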
